A study of Rattus norvegicus with 24 samples.

Results

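Haemoglobin mRNA, the erythroid anion exchanger and the erythroid enzyme of haem synthesis were followed through 24 RNA-seq libraries of rat brain punches. The 4 genes, of 32552 listed, are a pair of alpha globin genes, Slc4a1 and Alas2. They had been picked by identifier with results of the nucleus accumbens of fentanyl females in view, so that contrast is described and not tested. The names come with the selection: the count tables hold identifiers and positions only, and the alpha globins are called A (ENSRNOG00000047321) and B (ENSRNOG00000045989) here. Slc4a1 is ENSRNOG00000020951 and Alas2 is ENSRNOG00000000167, which the tables place on chromosome X as the selection required.

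The study sequenced total RNA, depleted of ribosomal RNA, from 2 brain regions of 14 Sprague Dawley rats of both sexes. The rats had been given fentanyl, which activates opioid receptors, or saline; the regions were the ventral tegmental area (VTA), which holds dopamine neurons, and the nucleus accumbens (NAc), to which they project. In the VTA there were 3 fentanyl females, 2 saline females, 3 fentanyl males and 2 saline males, and each VTA library came from a rat that also gave an NAc library (10 rats). In the NAc there were 4 fentanyl females, 3 saline females, 4 fentanyl males and 3 saline males. By the series title the study was of opioid withdrawal and of choice between fentanyl and food. The labels give no dose, no age and no perfusion of the brain, and the rats were killed by decapitation. Each punch was of whole tissue, 1.19 mm across in the VTA and 2.16 mm in the NAc, so more red cells and more RNA per red cell cannot be told apart. The VTA females are other tissue than the NAc females behind the choice of genes, but not other rats; the males were not used by it.

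Red cells lose their nucleus while they mature, and the young cells, the reticulocytes, still carry mRNA, mostly of globin. Alpha globin joins beta globin and haem to form haemoglobin. Alas2 makes the first, rate-limiting step of haem synthesis in erythroid cells, and Slc4a1, or band 3, exchanges chloride for bicarbonate in the red cell membrane and anchors its skeleton. Unperfused brain tissue holds blood in its vessels, and globin mRNA has also been found in some neurons and glia.

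Alpha globin A lies on chromosome 10 from 15589364 to 15590220 and alpha globin B on the same chromosome from 15577249 to 15577977, both on the minus strand. Slc4a1 lies on chromosome 10 from 90296141 to 90312386 and Alas2 on chromosome X from 23167696 to 23187341, also listed on the minus strand. These are the tables' coordinates; their genome build is not given in the sources used here. Reads were counted over 557, 429, 4835 and 1749 exon bases, in the order A, B, Slc4a1 and Alas2. No other listed feature overlapped them. The same chromosome 10 run holds ENSRNOG00000029886 (15602794 to 15603649), with 23712 counts over the 24 libraries against 9589 for alpha globin A, 446 for alpha globin B and 45 for ENSRNOG00000028114. Rat alpha globin copies are much alike, and how reads that match several copies were counted is not given, so the split of counts between A, B and their neighbours is uncertain.

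The copies can be seen in RefSeq's rat assembly GRCr8, where 3 alpha globin genes and Alas2 have promoter entries; the entries are not paired with the tables' identifiers. The 250 bases before the start that the RefSeq promoter table gives are shown for 2 alpha globin genes and for Alas2. They were searched for the motifs below, and not every window holds all of them. Capitals mark matches to the GATA motif (AGATAA, with T allowed as the first letter and G as the last), to CACCC, to CCAAT and to TATAAA, on either strand; GATA1 and KLF1, the erythroid transcription factors, bind GATA and CACCC motifs. Hba-a1 is at chr10:15842581-15842830 and Hba-a3 at chr10:15816944-15817193, both read from the minus strand, and Alas2 at chrX:22895200-22895449, read from the plus strand, where the count tables list it on the minus strand. The Alas2 window lies inside RefSeq's span of that gene (chromosome X, 22890650 to 22914046), so the start it precedes is not at the outer end of the gene.
Hba-a1: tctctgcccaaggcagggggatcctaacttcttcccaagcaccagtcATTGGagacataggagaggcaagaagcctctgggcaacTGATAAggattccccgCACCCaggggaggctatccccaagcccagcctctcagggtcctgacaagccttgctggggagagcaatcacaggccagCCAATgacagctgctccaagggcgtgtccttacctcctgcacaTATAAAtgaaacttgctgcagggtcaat
Hba-a3: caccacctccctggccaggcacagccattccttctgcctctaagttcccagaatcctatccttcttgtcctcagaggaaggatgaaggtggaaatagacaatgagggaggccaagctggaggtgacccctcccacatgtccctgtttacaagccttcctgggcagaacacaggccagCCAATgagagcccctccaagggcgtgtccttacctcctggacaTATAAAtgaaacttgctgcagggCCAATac
Alas2: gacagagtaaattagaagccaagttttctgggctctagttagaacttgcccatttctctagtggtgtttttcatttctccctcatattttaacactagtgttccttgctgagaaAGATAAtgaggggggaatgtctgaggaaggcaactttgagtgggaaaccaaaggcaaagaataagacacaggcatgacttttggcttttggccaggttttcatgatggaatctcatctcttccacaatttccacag

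Hba-a1 had TGATAA 165 bases and CACCC 149 bases before the start, CCAAT 71 bases before it, and TATAAA at 28 bases. It also had CCAAT on the other strand at 203 bases. Hba-a2, at chr10:15829139-15829388, had the same GATA, CACCC and TATAAA matches at the same distances and shared 96.4% of the 250 bases with Hba-a1. Hba-a3 shared 68.8% with Hba-a1 and had CCAAT at 73 and 7 bases and TATAAA at 30 bases, with no GATA or CACCC match in the window. Alas2 had 1 match, AGATAA 136 bases before the table's start. Of 33469 rat promoters of the same length, 27.0% held a GATA match, 49.2% CACCC, 34.0% CCAAT and 12.9% TATAAA, so single matches are common.

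Library totals were 4.49 to 6.30 M counts in the VTA and 3.46 to 5.01 M in the NAc. Levels are given as CPM, the count scaled to a common library total. The mitochondrial share of counts was 29.2 to 36.7% in NAc fentanyl females, against 22.1 to 26.1% in NAc saline females. In the VTA it was 21.4 to 26.9% in fentanyl females and 19.4 to 21.0% in saline females. The labels give no sequencing batch, and nothing in them says more of the replicates than that they are separate rats. Marker symbols of other blood cells, and of the 2 brain regions, could not be paired with the identifiers, so neither was analysed here.

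The 4 genes differed widely in level and in how much they varied. Per kilobase of exon, the median over the 24 libraries was 52.6 CPM for alpha globin A, 6.19 for alpha globin B, 6.01 for Alas2 and 0.205 for Slc4a1. Alpha globin A ran from 6.58 to 345 CPM, a 52.4-fold range, and Alas2 from 3.38 to 32.5 CPM, a 9.61-fold range. Slc4a1 had no count in 4 libraries and up to 143 in 1, and alpha globin B had 3 to 70 counts in a library. The plot of levels by library shows each value.

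**Figure D1:**
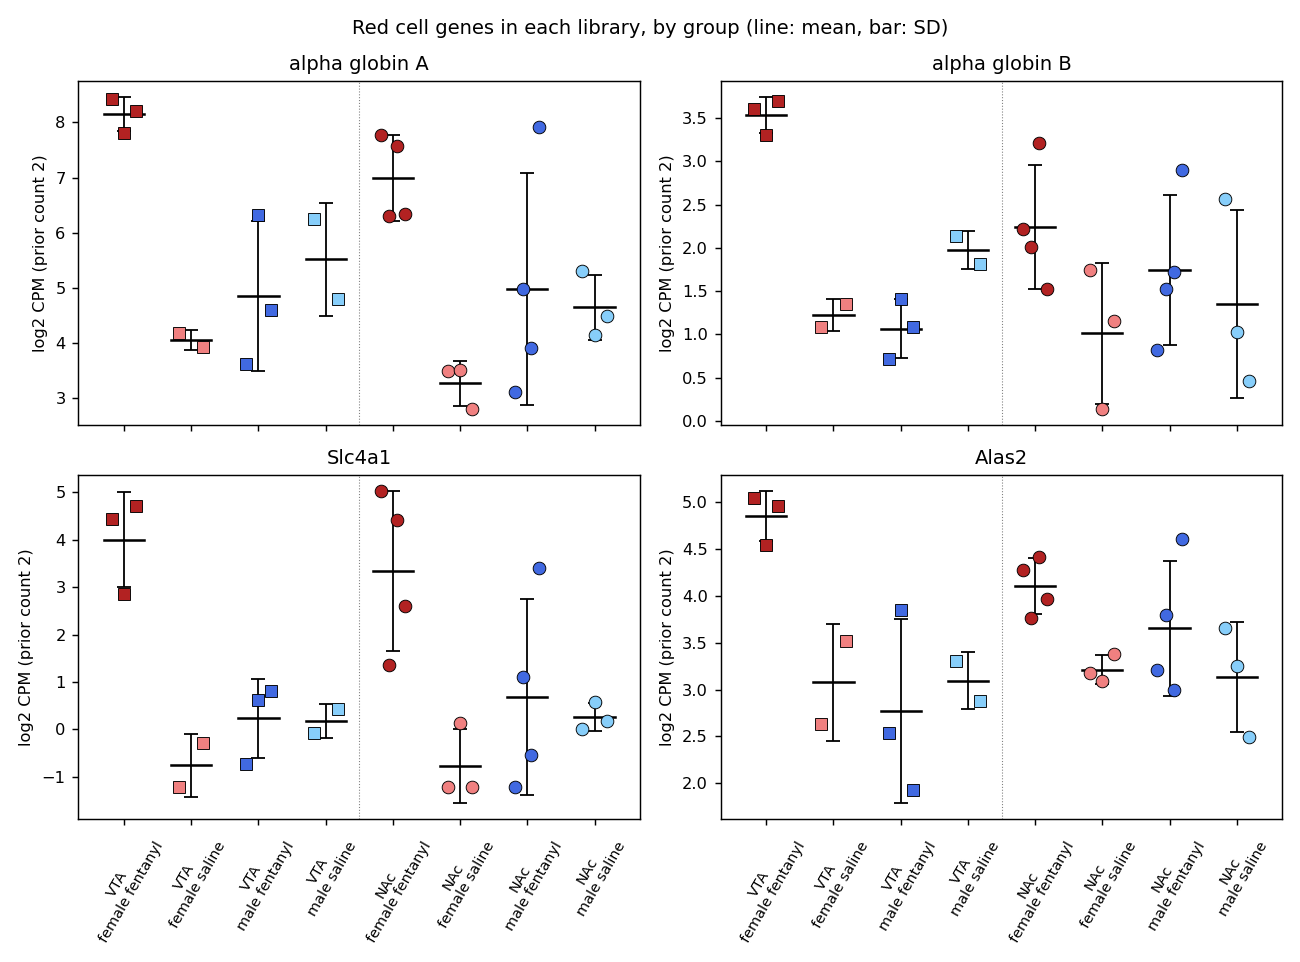
Level of each gene (log2 CPM with a prior count of 2) in every library, VTA groups left of the dotted line (squares) and NAc groups right of it (circles); points are rats, lines are group means and bars are SD. For alpha globin A the fentanyl females lie above all saline rats of their region, 1 NAc fentanyl male lies as high, and the lowest values of Slc4a1 on the axis are libraries with 0 counts.

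In the NAc of females, the contrast behind the choice of genes, alpha globin A had 218, 78.8, 190 and 80.3 CPM in fentanyl rats (replicates 1, 2, 7 and 8), against 10.9, 10.98 and 6.58 CPM in saline rats (replicates 1, 2 and 4). The groups averaged 142 ± 72.9 and 9.48 ± 2.51 CPM (SD, n = 4 and 3) and did not overlap: the lowest fentanyl rat was 7.18-fold above the highest saline rat. Replicates 1 and 7 of the fentanyl rats stood above the other pair. Slc4a1 had 114, 10, 80 and 23 counts in the same fentanyl libraries, against 0, 3 and 0 in saline libraries. The same 2 replicates were again highest, and the pooled CPM were 66.6-fold apart, with a 95% counting interval of 22.5 to 325 that covers counting error only.

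Alas2, the haem enzyme, had 18.9, 13.1, 20.8 and 15.1 CPM in NAc fentanyl females, against 8.59, 8.07 and 9.98 CPM in saline females. These groups did not overlap either, but the fold of the means was 1.92, far below that of alpha globin A (15.0). Alpha globin B had 15, 17, 34 and 10 counts in fentanyl libraries, against 14, 3 and 9 in saline libraries, and its CPM ranges overlapped. Over all 13248 genes tested in the NAc, 8.05% were called higher in fentanyl females by edgeR's quasi-likelihood test at an adjusted p under 0.05 (13.5% in either direction), and 5.26% lay higher without overlap. Of the 4 genes, 3 lay higher without overlap. Nothing is read from this count, since the genes were chosen with this contrast in view, and their own calls are not given.

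The VTA libraries of females came from some of the same animals, in a tissue the choice did not use. NAc fentanyl replicate 8 and saline replicate 4 gave none there. These tests are thus not independent of the choice of genes. Alpha globin A had 345, 224 and 296 CPM in fentanyl rats (replicates 1, 2 and 7), against 17.8 and 14.9 CPM in saline rats (replicates 1 and 2). The groups averaged 289 ± 60.7 and 16.4 ± 2.08 CPM (SD, n = 3 and 2), a 17.6-fold difference. Every fentanyl rat was at least 12.6-fold above the higher saline rat. Alpha globin B, the copy with few counts, had 53, 46 and 70 counts in fentanyl libraries, against 10 and 11 in saline libraries. Its means were 11.3 ± 1.63 CPM in fentanyl females and 1.91 ± 0.303 CPM in saline females, 5.90-fold apart with no overlap.

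Slc4a1, the membrane exchanger, had 96, 33 and 143 counts in VTA fentanyl females, against 0 and 2 counts in saline females. Fentanyl replicate 2 had the lowest value, as it had in the NAc. The pooled CPM were 101-fold apart, with a 95% counting interval of 27.6 to 836. Alas2 had 32.5, 22.8 and 30.6 CPM in fentanyl females, against 5.78 and 11.03 CPM in saline females, a 3.41-fold difference of the means. So all 4 genes lay higher in VTA fentanyl females without overlap, as did 6.60% of the 14400 genes tested there.

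By edgeR's quasi-likelihood test over all VTA genes, none of the 4 passed an adjusted p under 0.05 in the females. The log2 fold changes were 4.24 ± 0.95 for alpha globin A, 2.66 ± 0.39 for alpha globin B, 6.56 ± 0.98 for Slc4a1 and 1.89 ± 0.49 for Alas2 (± SE). Alpha globin B had the smallest p of the 14400 genes (1.19e-05, adjusted 0.132) and Slc4a1 the third smallest (2.75e-05, adjusted 0.132). The adjusted p was 0.507 for alpha globin A and for Alas2. The test called 0 genes in all in this contrast, while 7.62% had an unadjusted p under 0.05, 3.80% of all with a higher level. DESeq2 called 25 genes, among them all 4, with adjusted p of 0.00033 for alpha globin A, 0.00033 for alpha globin B, 0.00018 for Slc4a1 and 0.0364 for Alas2. The median log2 fold change was 3.45 over the 4 genes and 0.01 over all genes tested.

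Leaving out fentanyl replicate 2 put alpha globin B and Slc4a1 past the threshold in edgeR, with log2 fold changes of 2.77 and 6.95; the fold changes of all 4 genes stayed positive without any 1 library. Without saline replicate 2, the only VTA saline female with Slc4a1 counts, the fitted change of Slc4a1 was 9.67. With mitochondrial features left out before scaling, no call and no sign among the 4 genes changed.

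Males showed no such separation. In the NAc, alpha globin A had 8.28, 31.2, 14.6 and 241 CPM in fentanyl males (replicates 1, 2, 3 and 7), against 39.0, 17.4 and 22.2 CPM in saline males (replicates 1, 3 and 4). Fentanyl replicate 7 was above every NAc fentanyl female, while the other fentanyl males lay across the saline range or below it. Slc4a1 had 0, 7, 1 and 42 counts in fentanyl males and 2, 4 and 3 in saline males. Alas2 had 8.82, 13.4, 7.57 and 23.8 CPM in fentanyl males and 12.1, 9.10 and 5.20 CPM in saline males. Alpha globin B had 5, 10, 11 and 29 counts in fentanyl males and 19, 6 and 4 in saline males. In each of the 4 genes replicate 7 was the highest NAc male, and the groups overlapped.

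No gene passed edgeR's test in NAc males (0 of 13248; 6.42% at an unadjusted p under 0.05; DESeq2 called 5, gave alpha globin A an adjusted p of 0.867 and gave the other 3 genes none). The log2 fold changes were 1.52 ± 1.07 for alpha globin A, 0.41 ± 0.63 for alpha globin B, 1.93 ± 1.79 for Slc4a1 and 0.63 ± 0.37 for Alas2, with adjusted p of 0.831 to 0.942. The positive values rested on 1 library for 3 genes. Without replicate 7 they were -0.53 for alpha globin A, -0.23 for alpha globin B and -0.23 for Slc4a1, and 0.18 for Alas2.

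In the VTA, where that rat gave no library, alpha globin A had 11.9, 79.2 and 23.8 CPM in fentanyl males (replicates 1, 2 and 3), against 75.4 and 27.3 CPM in saline males (replicates 1 and 3). Slc4a1 had 1, 7 and 7 counts in fentanyl males and 3 and 5 in saline males. Alas2 had 5.37, 13.97 and 3.38 CPM in fentanyl males and 9.47 and 6.92 CPM in saline males. These 3 genes overlapped between the groups. Alpha globin B had 7, 14 and 9 counts in fentanyl males and 23 and 17 in saline males, lower without overlap, as were 19.6% of the genes tested. Its log2 fold change was -0.94 ± 0.39 (adjusted p = 0.956 by edgeR). No gene passed edgeR's test in VTA males (0 of 14400; 4.50% at an unadjusted p under 0.05; DESeq2 called 4, none of the 4 genes here).

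The difference between the sexes in the VTA, the female effect minus the male effect, was positive for all 4 genes. It was 4.58 ± 1.19 for alpha globin A, 3.60 ± 0.55 for alpha globin B, 6.19 ± 1.59 for Slc4a1 and 1.91 ± 0.69 for Alas2 on the log2 scale. None passed edgeR's adjusted threshold; alpha globin B had the smallest p of all genes (1.74e-05, adjusted 0.251), and the others had an adjusted p of 1.00. The test called 0 genes (3.31% at an unadjusted p under 0.05), and DESeq2 called 1, which was alpha globin B (adjusted p = 0.0128). With the sexes averaged, the log2 fold changes in the VTA were 1.95 ± 0.60, 0.86 ± 0.28, 3.46 ± 0.73 and 0.94 ± 0.35 for A, B, Slc4a1 and Alas2, at adjusted p of 0.306 to 0.486. There edgeR called 0 genes (8.83% at an unadjusted p under 0.05) and DESeq2 called 38, including Slc4a1. Both comparisons include females whose NAc levels lay behind the choice of genes. Their ranks and calls are therefore no independent test of the 4 genes.

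**Figure D2:**
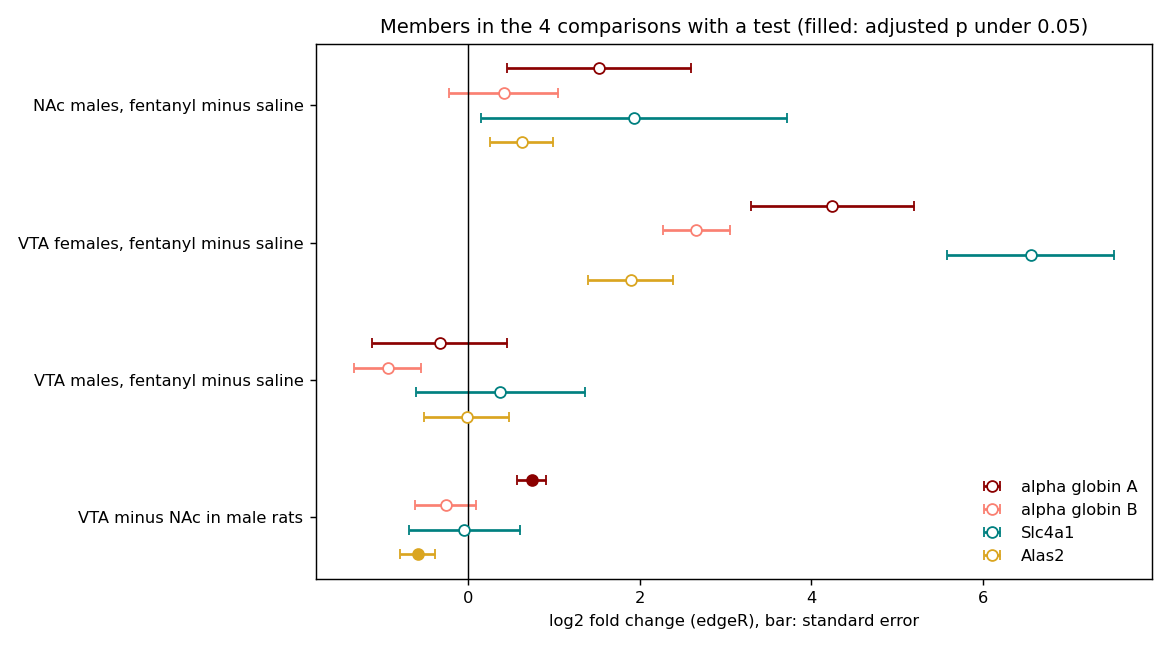
Log2 fold changes of the 4 genes with their standard errors in the comparisons that were tested by edgeR; filled points passed an adjusted p under 0.05. In VTA females all 4 lie above 0 (1.89 to 6.56), in males the values run from -0.94 to 1.93, and only alpha globin A and Alas2 in the comparison of regions are filled.

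Ordered by mean level, alpha globin A was highest in VTA fentanyl females (289 CPM), then NAc fentanyl females (142 CPM). NAc fentanyl males (73.8 ± 112 CPM), VTA saline males (51.4 ± 34.0 CPM), VTA fentanyl males (38.3 ± 35.9 CPM), NAc saline males (26.2 ± 11.3 CPM), VTA saline females (16.4 CPM) and NAc saline females (9.48 CPM) followed. Only the first 2 and the last 2 groups in that order did not overlap with each other; all neighbours between them did. VTA and NAc fentanyl females also held the first and second place for the other 3 genes. Saline females were lowest for both alpha globin A and Slc4a1, below the saline males of the same region.

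Levels of alpha globin A in the 2 regions of a rat went together. Alpha globin A was higher in the VTA than in the NAc of all 10 rats, by 1.36- to 2.85-fold, although its level differed between rats by far more. The highest VTA level, 345 CPM, was in the female with the highest NAc level among rats with both regions (218 CPM). The lowest, 11.9 CPM, was in the male with 8.28 CPM in the NAc. Because fentanyl females formed a cluster of their own, the relation was computed over the other 7 rats: Pearson's r was 0.987 (exact permutation p = 0.000794, adjusted over 10 relations 0.00794). Spearman's rho was 0.929 (exact permutation p = 0.00675, adjusted 0.0675). The 3 fentanyl females were too few for an r of their own. The 7 rats include saline females, whose NAc levels lay behind the choice of genes, so these values and their p are descriptions.

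For the other genes the relation between regions over those 7 rats did not pass. Pearson's r was 0.417 for alpha globin B, 0.707 for Slc4a1 and 0.715 for Alas2, with exact permutation p of 0.345, 0.0806 and 0.0788 (adjusted 0.431, 0.201 and 0.201). Their rho were 0.321, 0.595 and 0.607 (adjusted 0.622, 0.288 and 0.288). Slc4a1 had at most 7 counts in each of these libraries. With each group's mean taken out over all 10 rats, r was 0.902 for alpha globin A, 0.860 for Slc4a1 and 0.792 for Alas2 (adjusted permutation p of 0.00400, 0.00728 and 0.0203). It was 0.396 for alpha globin B (adjusted permutation p = 0.289). By rho only alpha globin A had an adjusted permutation p under 0.05 (0.927, adjusted 0.00512). The permutation ignored that taking out the means ties the values of a group to each other, so these p tend to be too small. Levels of NAc females, which lay behind the choice of genes, also enter here. These r over all 10 rats are therefore descriptions.

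**Figure D3:**
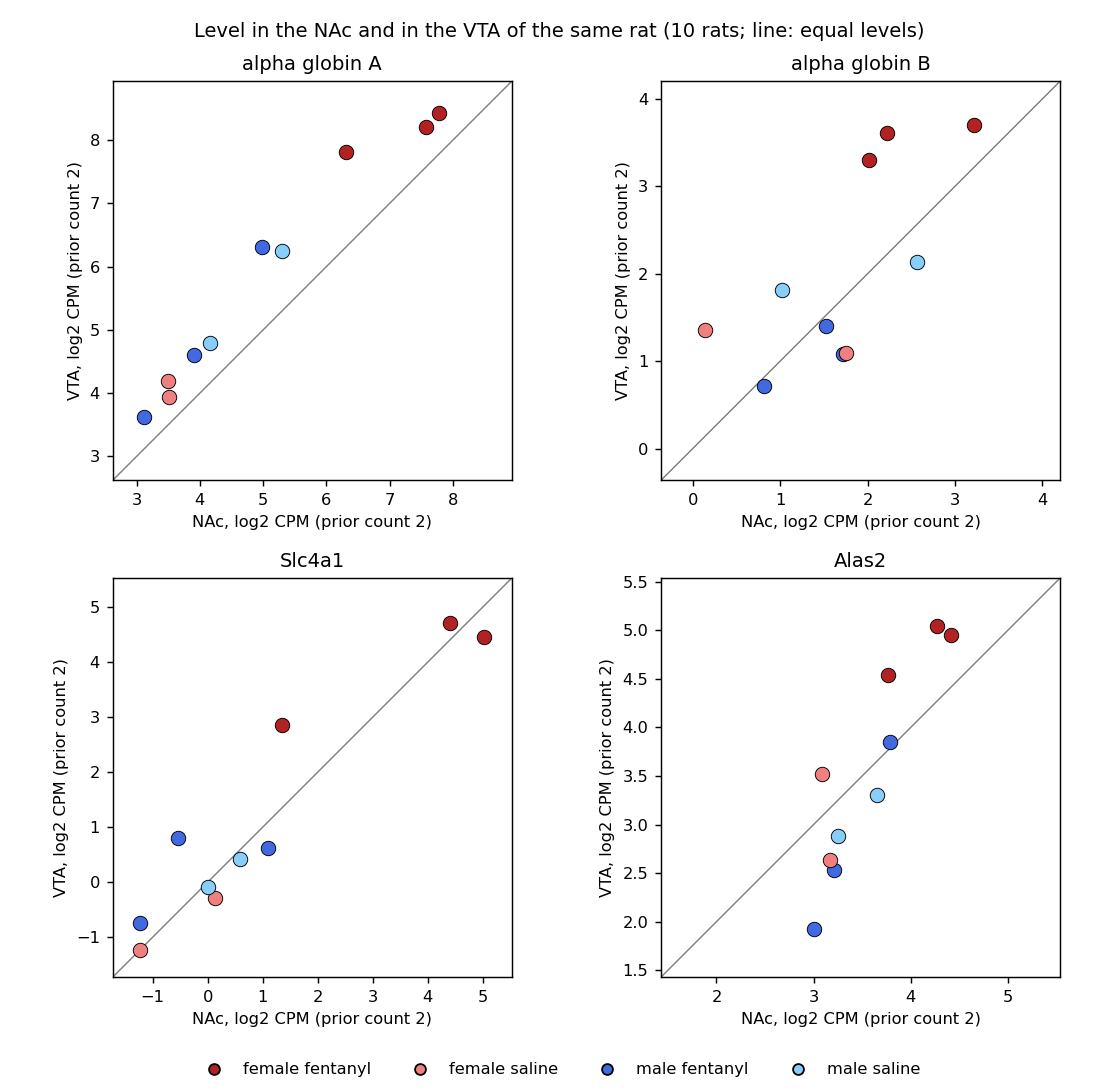
VTA level against NAc level (log2 CPM, prior count 2) of the 10 rats with both regions, with the line of equal levels. Alpha globin A lies above the line in all 10 rats and the 3 fentanyl females stand apart from the other 7, while the other 3 genes lie on both sides of the line.

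In the male rats alone, compared within rats by edgeR, alpha globin A was higher in the VTA than in the NAc, with a log2 fold change of 0.74 ± 0.17 (adjusted p = 0.00236, higher in 5 of 5 rats). Alas2 was lower in the VTA, with a log2 fold change of -0.59 ± 0.20 (adjusted p = 0.0196, lower in 4 of 5 rats). Alpha globin B (-0.27 ± 0.36, adjusted p = 0.560) and Slc4a1 (-0.05 ± 0.65, adjusted p = 0.961) did not pass. Of the 14795 genes tested, 51.3% were called between these regions, 25.8% higher and 25.5% lower in the VTA, so 2 of 4 called is near the background. The call of Alas2 was lost without 4 of the 5 rats in turn (adjusted p 0.00670 to 0.107) and by DESeq2; that of alpha globin A held without each rat.

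Whether the genes moved together within a library was asked where the choice of genes had not looked. Over the 7 NAc males, alpha globin A went with Slc4a1 (r = 0.937, exact permutation p = 0.00694, adjusted 0.0111), with alpha globin B (r = 0.777, adjusted exact permutation p = 0.0305) and with Alas2 (r = 0.807, adjusted exact permutation p = 0.0442). Alpha globin B went with Alas2 (r = 0.827, adjusted 0.0248). Alpha globin B with Slc4a1 (r = 0.597, adjusted 0.155) and Slc4a1 with Alas2 (r = 0.774, adjusted 0.0580) did not pass. The 6 rho were 0.36 to 0.75, none past the threshold (adjusted 0.0964 to 0.444). Without the 2 libraries farthest from the median the 6 r were 0.189 to 0.613, with fentanyl replicate 7 among those left out; none passed, at only 5 libraries. Adjustment was over 16 relations: these 6 pairs, the pairs over all VTA libraries, and each gene between regions over all rats with both. The others include fentanyl females, and the relations between regions also NAc females. Small p among them ease the adjustment for the NAc males. Adjustment over the 6 NAc male pairs alone was not made.

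Over the 7 VTA libraries other than those of fentanyl females, no pair passed. The r were 0.702 for alpha globin A with B, 0.529 with Slc4a1 and 0.538 with Alas2. They were 0.351 for alpha globin B with Slc4a1, 0.487 for B with Alas2 and 0.0700 for Slc4a1 with Alas2, with adjusted exact permutation p of 0.201 to 0.883. Slc4a1 had 0 to 7 counts in these libraries. With each group's mean taken out of all 10 VTA libraries, 4 of the 6 pairs had an adjusted permutation p under 0.05. These were alpha globin A with B (r = 0.858, adjusted permutation p = 0.00779), B with Slc4a1 (0.736, adjusted 0.0363), B with Alas2 (0.706, adjusted 0.0416) and A with Alas2 (0.684, adjusted 0.0426). Alpha globin A with Slc4a1 (0.378, adjusted 0.303) and Slc4a1 with Alas2 (0.310, adjusted 0.388) did not. By rho alpha globin A with B was the pair under that threshold (0.818, adjusted permutation p = 0.0468). Taking out the means ties the values of a group to each other, which the permutation ignored. The p of this setting therefore tend to be too small, and its r are descriptions.

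**Figure D4:**
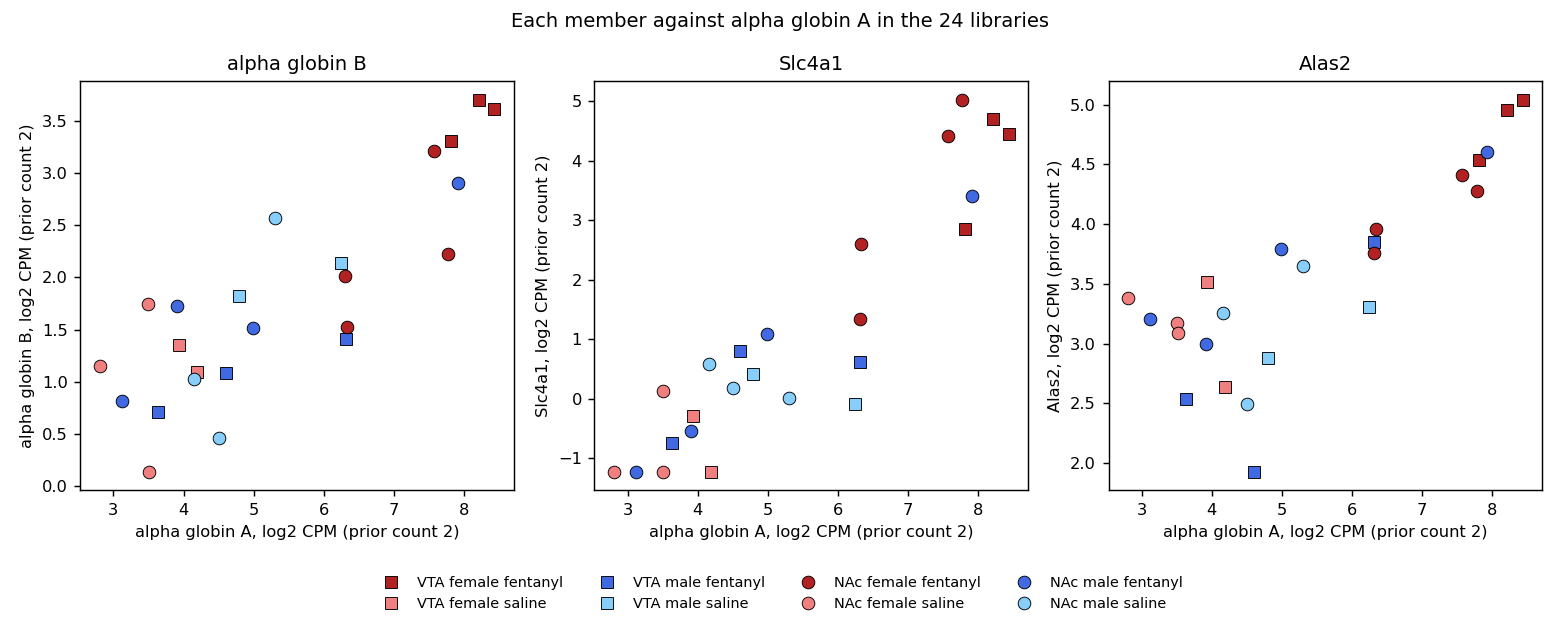
Each of the other 3 genes against alpha globin A (log2 CPM, prior count 2) in all 24 libraries, VTA as squares and NAc as circles. The 6 libraries with the most alpha globin A, those of the 3 VTA fentanyl females, NAc fentanyl female replicates 1 and 7 and NAc fentanyl male replicate 7 (190 to 345 CPM), are also the 6 highest for Slc4a1 and for Alas2.

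The ratios between the genes were not the same in all libraries. Per 100 counts of alpha globin A, Alas2 had 8.67 to 18.8 counts in NAc fentanyl females, against 73.5 to 152 in NAc saline females. In the VTA it had 9.41 to 10.3 in fentanyl females and 32.4 to 74.0 in saline females. A straight line through the CPM gave 5.05 CPM of Alas2 at 0 of alpha globin A in the VTA, where saline females averaged 8.41 ± 3.71 CPM. In the NAc it gave 8.24 CPM, where saline females averaged 8.88 ± 0.988 CPM. Alas2 was thus not lower in proportion to alpha globin A in the low libraries.

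Slc4a1 kept no fixed ratio either. It had 14.7 and 10.99 counts per 100 of alpha globin A in NAc fentanyl female replicates 1 and 7, against 2.69 and 6.99 in replicates 2 and 8. NAc fentanyl male replicate 7, with the highest NAc level of alpha globin A, had 4.24. VTA fentanyl females had 3.02 to 8.69, and the 16 libraries besides all of these had 0 to 6.15. Alpha globin B had 1.94 to 4.67 per 100 in NAc fentanyl females, against 6.12 to 27.3 in NAc saline females. NAc fentanyl female replicate 1 and NAc fentanyl male replicate 7, close in alpha globin A (218 and 241 CPM), thus lay apart in Slc4a1 (32.2 and 10.2 CPM).

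The genes most like alpha globin A were ranked by the lower of their r with it over the 14 NAc and over the 10 VTA libraries, among 17768 genes with at least 30 counts. The r are descriptions, and the median of this lower r over all ranked genes was -0.34. The ranking pooled fentanyl females with the rest and used the NAc females behind the choice of genes. First came ENSRNOG00000029886 in the alpha globin run (0.990), with 163.5 to 427 counts per 100 of alpha globin A. Next were ENSRNOG00000061299 (0.972) and ENSRNOG00000058105 (0.952) on chromosome 1, which with ENSRNOG00000047098 (0.828) lie within 27.3 kb, from 168945449 to 168972725. The files do not pair these identifiers with names. Slc4a1 ranked 4th (0.904), Alas2 7th (0.849) and alpha globin B 17th (0.757).

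ENSRNOG00000019183 on chromosome 10 (56953691 to 56962161), at a likeness of 0.892, varied over a wide range. It had 44 to 1020 counts in the 7 libraries of fentanyl females and 287 in NAc fentanyl male replicate 7, against 0 to 31 in the other 16. Like Slc4a1 it did not keep to the globin level, with 7.15 to 87.8 counts per 100 of alpha globin A in fentanyl females. The rest were ENSRNOG00000020165 on chromosome 1 (0.873), ENSRNOG00000007539 on chromosome 6 (0.833) and ENSRNOG00000000940 on chromosome 12 (0.819). ENSRNOG00000020165 had 58 counts in all and ENSRNOG00000047098 had 76. ENSRNOG00000000940 differed little in level, with 90.8 ± 18.1 CPM in VTA fentanyl females and 65.5 ± 13.2 CPM in VTA saline females.

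**Figure D5:**
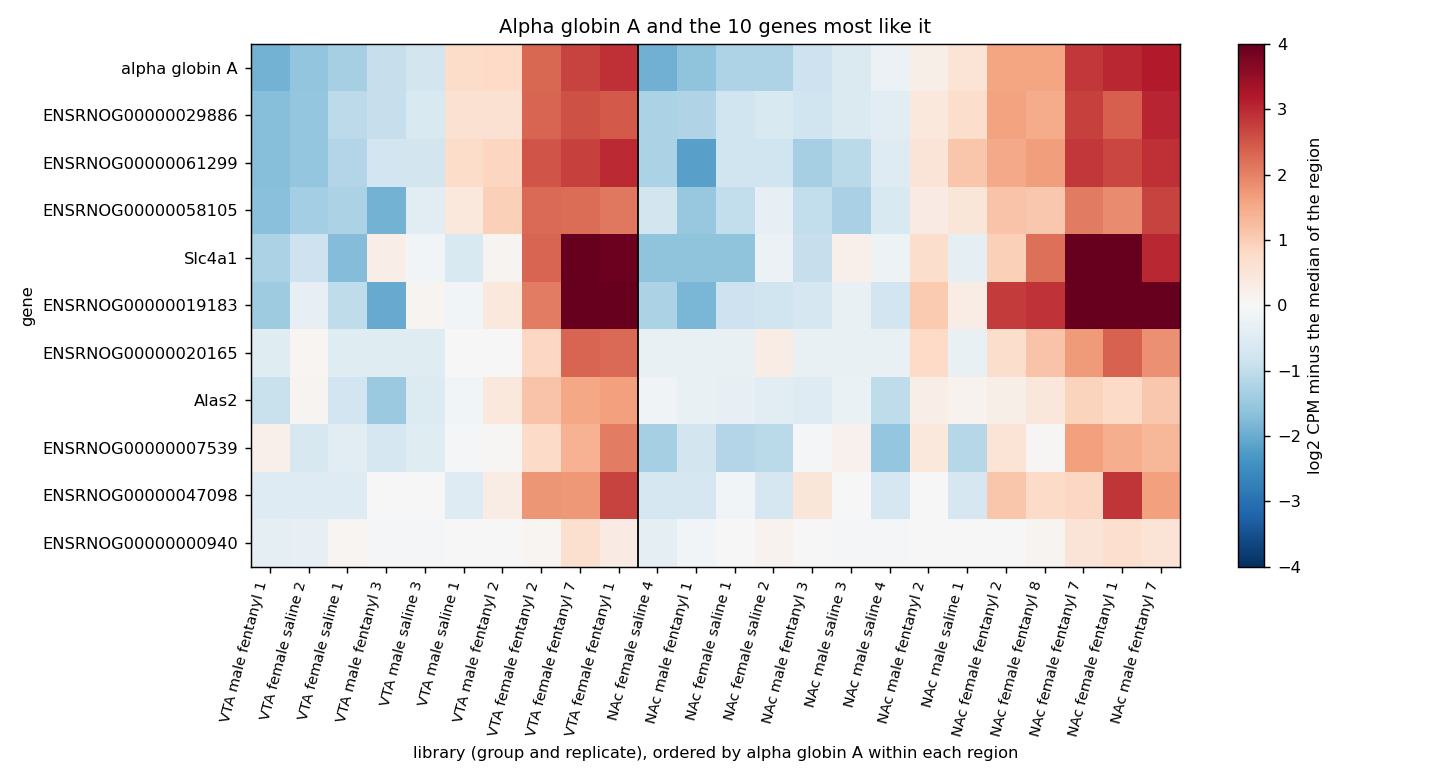
Level (log2 CPM minus the median of its region) of alpha globin A and the 10 genes most like it, in libraries ordered by alpha globin A within the VTA (left) and the NAc (right); colours saturate at 4. In both regions the fentanyl females stand at the high end, joined in the NAc by fentanyl male replicate 7.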

How the data were processed

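Per the labels' protocols, total RNA passed a column, rRNA was removed and sequencing was paired-end. The authors deposited raw counts per Ensembl gene, 1 table per library, with no normalization; per the submitters' processing notes the tools included STAR 2.5.2b, Trimmomatic 0.36, Subread 1.5.2, DESeq2 and featureCounts. The sources used here do not give build, strand setting or treatment of multi-mapping reads. Groups came from the labels' region, sex and treatment.

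Tests used edgeR 4.0.16 in R 4.3.3 (TMM, filterByExpr, robust quasi-likelihood F test, two-sided, Benjamini-Hochberg over all genes tested). Each region was fitted with its 4 groups, and regions were compared with rat as a block. CPM used plain library totals, and log2 CPM a prior count of 2. Correlations used two-sided permutation tests, exact below 10 values and otherwise with 100000 resamples (scipy 1.17.1). Counting intervals are 95% and cover counting error only. Sequences are RefSeq's, from GRCr8.

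The genes, lists and tests were chosen with earlier results of these data known. The genes named are the 4 members and the 10 most like alpha globin A. Lists of other erythroid, blood and vessel markers were not analysed here, because no table in use pairs their symbols with the identifiers. Within groups, all 26 pairs of libraries differed by more than sampling noise (chi-square per degree of freedom 2.61 to 20.9). Alternatives were DESeq2 1.42.0, no low-count filter, mitochondrial features left out, the replicate number as a block, the compared groups alone and each library left out. The comparison of the sexes in the VTA and the correlations without fentanyl females were added after seeing the data.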

Additional observations from a re-analysis of the deposited data

Results flagged for a closer look

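In the NAc fentanyl males, replicate 7 lay far from the other 3 rats in alpha globin A, with 241 CPM against 8.28 to 31.2 CPM. Its gap to the next rat was 0.901 of the group's whole range, above Dixon's 95% limit for a group of 4. Slc4a1 in the same rat had 10.2 CPM against 0 to 1.71 CPM, a gap of 0.833 of the range. These were 2 of 8 sets of values examined (4 genes in each NAc fentanyl group), and both values come from 1 library. Chance gives such a gap in about 1 group in 20 if values are normally distributed, which raw CPM need not be. On the log2 CPM scale, where the gap was not examined, alpha globin A was 7.92 against 3.12 to 4.98. Slc4a1 was 3.41 against -1.23 to 1.09.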

How the results depend on the processing

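By edgeR no gene was called in NAc males, VTA males, VTA females, with the sexes averaged or for the sex difference, and counts of calls moved with the tool and the filter. DESeq2 called 5 genes in NAc males, 4 in VTA males, 25 in VTA females, 38 with the sexes averaged and 1 for the sex difference; without the low-count filter edgeR called 46, 114, 418, 499 and 109. With only the 2 groups compared it called 2, 2 and 5 in NAc males, VTA males and VTA females. With each library left out, the calls were 0 to 2, 0 to 0, 0 to 11, 0 to 2 and 0 to 5.

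In VTA females the log2 changes of A, B, Slc4a1 and Alas2 passed by DESeq2 (4.25, 2.67, 6.73 and 1.89) and without the filter (4.23, 2.65, 6.55 and 1.88), as did A with the 2 groups alone (4.25). With the sexes averaged, Slc4a1 passed by DESeq2 (3.56), and A, Slc4a1 and Alas2 without the filter (1.95, 3.45 and 0.93). The sex difference passed for B by DESeq2 (3.61) and for all 4 without the filter (4.58, 3.60, 6.19 and 1.91). In VTA females, leaving out the filter took the SE of A from 0.95 to 0.22. That of Slc4a1 went from 0.98 to 0.65 and that of Alas2 from 0.49 to 0.29, while that of B rose from 0.39 to 0.48. The passes in VTA females without the filter thus came without larger changes. For B the adjusted p of edgeR's test went from 0.132 to 9.66e-06 although its SE rose. What lowered it was not tested.

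Leaving out 1 library gave, for A, B, Slc4a1 and Alas2, -0.53 to 1.89, -0.23 to 1.37, -0.23 to 2.32 and 0.18 to 0.87 in NAc males. It gave -1.39 to 0.59, -1.15 to -0.72, -0.058 to 0.87 and -0.79 to 0.29 in VTA males. In VTA females it gave 4.04 to 4.43, 2.54 to 2.78, 5.59 to 9.67 and 1.52 to 2.37. With the sexes averaged it gave 1.43 to 2.42, 0.75 to 0.97, 2.98 to 5.02 and 0.55 to 1.18. For the sex difference it gave 3.66 to 5.63, 3.38 to 3.81, 5.23 to 9.30 and 1.54 to 2.68. Where 1 VTA saline rat of a sex was left, it was assumed to vary like the other groups. Between regions, with 1 rat left out, the values were 0.59 to 0.84, -0.51 to 0.11, -0.47 to 0.95 and -0.79 to -0.50.

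The replicate block turned B in NAc males to -0.10, brought A and Alas2 there to 0.07 and 0.25 and Alas2 in VTA males to -0.46, and called 1 gene in the VTA with the sexes averaged; it changed no other call among the 4 genes. Same-numbered libraries had residual correlations of -0.05 to 0.23. Of 8 pairs, 2 were over 0.1, both in VTA males (0.23 and 0.20). Whether such libraries share more than a number cannot be told from these values. Between regions, with the rat left out of the fit as a block, A (0.84) and Alas2 (-0.53) no longer passed. By DESeq2 Alas2 (-0.61) did not pass and Slc4a1 was 0.025.

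The planned r over all 10 VTA libraries, 0.834 to 0.940, and over the 10 rats between regions, 0.696 to 0.983, pooled fentanyl females with the rest. With group means taken out, 4 of 6 VTA pairs (0.684 to 0.858) and A, Slc4a1 and Alas2 between regions (0.902, 0.860 and 0.792) had an adjusted permutation p under 0.05. In the VTA A with Slc4a1 (0.378) and Slc4a1 with Alas2 (0.310) no longer had, nor had B between regions (0.396). Slc4a1 with Alas2 in NAc males did (0.790). The permutation ignored that taking out means ties the values of a group, so the p of this setting tend to be too small. Without the 2 farthest, in the VTA A with Slc4a1 (0.808), A with Alas2 (0.766), B with Slc4a1 (0.804), B with Alas2 (0.765) and Slc4a1 with Alas2 (0.594) no longer passed. In NAc males A with B (0.503), A with Slc4a1 (0.396), A with Alas2 (0.613) and B with Alas2 (0.433) did not, nor did B (0.612), Slc4a1 (0.784) and Alas2 (0.796) between regions. Without fentanyl females the 6 VTA pairs (0.702, 0.529, 0.538, 0.351, 0.487 and 0.0700) and B, Slc4a1 and Alas2 between regions (0.417, 0.707 and 0.715) did not pass. By Pearson's r alpha globin A between regions passed under all 5 alternatives, of which group means taken out carries the limit above. By rho it did not pass without fentanyl females (0.929, adjusted permutation p = 0.0675). NAc females, whose levels lay behind the choice of genes, enter all 5, so these are descriptions. The causes were not tested. Slc4a1 and alpha globin B rest on few counts in the low libraries, which limits what could be detected there.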
